A study of Homo sapiens with 9 samples.

Results

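The genes described here are 36 genes of the DNA damage response and DNA repair, taken by name from a list and found by symbol among 19970 protein-coding genes of chromosomes 1 to 22 and X. ATAC-seq, which maps open DNA by letting the transposase Tn5 insert sequencing adapters there, was done in SK-N-MC, an established Ewing sarcoma cell line. All cells carried a doxycycline-inducible short hairpin RNA and were kept for 48 h with 100 ng/ml doxycycline: a scrambled hairpin on a background labelled wildtype (shScramble), or 1 of a pair of hairpins against CHD4, an ATPase of the chromatin remodelling complex NuRD (hairpin 1 stands for shCHD4#1 and hairpin 2 for shCHD4#2), both labelled CHD4 knockdown. Each group had 3 biological replicates per the labels, and 1 list of accessible regions per group was analysed, treated as the combined list of its replicates by inference from its name. There was therefore no spread between replicates, no difference between groups could be tested, and every comparison is a description of 3 lists whose read depth is unknown. The shScramble list was 85775 regions long, that of hairpin 1 122869 and that of hairpin 2 83241, so that a gene can have more regions with hairpin 1 because that list is longer.

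Cells answer DNA breaks with a relay of proteins. ATM and ATR are kinases that respond to double-strand breaks and to exposed single-stranded DNA, and they act through CHEK1, CHEK2 and WEE1 to halt the cell cycle. Broken ends are recognised by the MRE11-RAD50-NBN complex or by the Ku heterodimer (XRCC5 and XRCC6), marked on histone H2AX, and then repaired either by homologous recombination around BRCA1, PALB2 and BRCA2 or by end joining with LIG4. The Fanconi anaemia proteins deal with DNA crosslinks, and PARP1 and PARP2 respond to single-strand breaks. Many of these genes are expressed in all dividing cells, and some share a bidirectional promoter with a neighbour. Ewing sarcoma cells are known for sensitivity to DNA-damaging drugs and PARP inhibitors in culture.

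Of the 36 genes, 30 matched a RefSeq start site with strand and promoter sequence (GRCh38.p14, the build of the lists apart from its patch release). WEE1, PRKDC, NBN, XRCC5, FANCI and RPA2 did not, and are described by their gene ends. The promoters of 8 genes are printed, 250 bases before to 50 bases after the start, 5′ to 3′ on the gene's own strand. FANCA, RPA1, BARD1 and NHEJ1 are shown because their start base lay outside every shScramble region and inside a region of at least 1 hairpin list. XRCC3 had a narrower region at its start with both hairpins, MDC1 had the widest and FANCD2 the narrowest stretch over a start with shScramble, and MRE11 has its RefSeq start far inside the annotated gene. These 8 were picked with the values known. Capitals mark the letters searched for, on either strand: CCGGAAGT (ETS factors), GGAAGGAA (the repeat bound by the EWSR1::FLI1 fusion), CCAAT (NF-Y), GCGCATGC (NRF1), TTTCCCGC and TTTGGCGC (E2F), TTTGAA (CHR), TGACGTCA (CRE) and GGGCGG (GC box). No string contains another on either strand.
FANCA, chr16:89816598-89816897, minus strand: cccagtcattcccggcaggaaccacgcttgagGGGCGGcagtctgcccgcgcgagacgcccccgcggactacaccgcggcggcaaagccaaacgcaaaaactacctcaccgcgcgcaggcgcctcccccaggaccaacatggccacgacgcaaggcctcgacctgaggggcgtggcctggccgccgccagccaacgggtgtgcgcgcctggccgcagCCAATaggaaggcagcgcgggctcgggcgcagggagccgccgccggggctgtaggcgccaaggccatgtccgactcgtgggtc
RPA1, chr17:1829755-1830054, plus strand: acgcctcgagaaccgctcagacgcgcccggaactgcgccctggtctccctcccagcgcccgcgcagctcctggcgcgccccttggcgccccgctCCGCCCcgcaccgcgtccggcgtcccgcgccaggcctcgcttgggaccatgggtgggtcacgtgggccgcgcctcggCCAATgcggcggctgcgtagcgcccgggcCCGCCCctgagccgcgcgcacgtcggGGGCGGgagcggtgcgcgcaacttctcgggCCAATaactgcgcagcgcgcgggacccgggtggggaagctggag
BARD1, chr2:214809634-214809933, minus strand: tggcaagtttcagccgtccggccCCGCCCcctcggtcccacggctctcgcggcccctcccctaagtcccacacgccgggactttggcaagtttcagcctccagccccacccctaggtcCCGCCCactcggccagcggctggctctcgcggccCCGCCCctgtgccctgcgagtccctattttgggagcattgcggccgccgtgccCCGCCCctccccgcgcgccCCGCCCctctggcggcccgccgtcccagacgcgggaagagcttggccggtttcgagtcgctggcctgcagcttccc
NHEJ1, chr2:219160766-219161065, minus strand: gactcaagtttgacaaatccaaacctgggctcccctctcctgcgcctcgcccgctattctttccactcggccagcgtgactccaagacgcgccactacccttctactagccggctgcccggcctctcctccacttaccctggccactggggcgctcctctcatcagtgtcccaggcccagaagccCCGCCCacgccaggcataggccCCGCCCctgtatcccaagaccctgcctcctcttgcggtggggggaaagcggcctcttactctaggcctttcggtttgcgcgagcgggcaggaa
XRCC3, chr14:103715402-103715701, minus strand: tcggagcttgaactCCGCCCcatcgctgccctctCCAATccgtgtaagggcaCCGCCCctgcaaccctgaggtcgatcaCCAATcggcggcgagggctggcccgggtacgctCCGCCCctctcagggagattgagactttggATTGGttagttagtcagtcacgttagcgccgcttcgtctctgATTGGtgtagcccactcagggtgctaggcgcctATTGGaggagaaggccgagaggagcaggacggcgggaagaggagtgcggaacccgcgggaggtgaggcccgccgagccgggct
MDC1, chr6:30717232-30717531, minus strand: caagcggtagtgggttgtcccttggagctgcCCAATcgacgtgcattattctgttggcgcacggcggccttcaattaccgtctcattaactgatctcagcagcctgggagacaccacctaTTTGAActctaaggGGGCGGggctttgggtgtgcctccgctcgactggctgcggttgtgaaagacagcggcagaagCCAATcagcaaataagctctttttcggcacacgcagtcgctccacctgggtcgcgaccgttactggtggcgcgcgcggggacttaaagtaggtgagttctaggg
FANCD2, chr3:10026187-10026486, plus strand: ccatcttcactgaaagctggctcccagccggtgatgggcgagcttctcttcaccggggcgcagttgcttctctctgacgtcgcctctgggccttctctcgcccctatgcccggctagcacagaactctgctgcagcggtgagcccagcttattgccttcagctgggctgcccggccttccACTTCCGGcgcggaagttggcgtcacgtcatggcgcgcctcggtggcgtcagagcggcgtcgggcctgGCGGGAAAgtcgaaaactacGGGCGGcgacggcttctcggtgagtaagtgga
MRE11, chr11:94493795-94494094, minus strand: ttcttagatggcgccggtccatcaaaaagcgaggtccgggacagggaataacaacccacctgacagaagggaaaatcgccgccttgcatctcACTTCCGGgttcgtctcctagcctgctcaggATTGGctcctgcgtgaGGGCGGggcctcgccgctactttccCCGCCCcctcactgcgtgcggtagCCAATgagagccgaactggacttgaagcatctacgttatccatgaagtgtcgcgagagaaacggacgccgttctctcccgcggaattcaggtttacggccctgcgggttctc

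The 4 promoters without a shScramble region at the start carried GC boxes but none of the ETS, NRF1, E2F, CHR or CRE strings. Promoters of genes with a start covered in every list, such as XRCC3, ATR, CHEK2 and PARP1, also held none of these strings. The lack of them was thus not particular to those 4. BARD1 had 5 GC boxes and no CCAAT. RPA1 had 3 GC boxes and a CCAAT string on each side of its start, and FANCA had 1 of each. XRCC3 had 5 CCAAT strings. FANCD2 and MRE11, both covered in every list, each held an ETS string, and FANCD2 also held an E2F string beside its start. XRCC3 and MDC1, likewise covered in every list, held no ETS string. Over the 30 member promoters, the GC box was found in 22 (73.3%, against 58.5% of 15811 protein-coding promoters of the same length), CCAAT in 16 (53.3% against 36.3%), the ETS string in 6 (20% against 6.19%), either E2F form in 4 (13.3% against 3.07%), CRE in 3 (10.0% against 2.59%), CHR in 3 (10.0% against 12.1%), NRF1 in 2 (6.67% against 4.26%) and the GGAA repeat in 0 (against 3.55%). The ETS promoters were those of MRE11, RAD50, RNF168, PALB2, BRCA2 and FANCD2, and the E2F promoters those of CLSPN, XRCC2, XRCC6 and FANCD2. The median GC content was 64.3% in the members and 62.7% in all promoters, and the median ratio of observed to expected CpG was 0.875 and 0.763. A match of letters is not a bound site.

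Another gene started within 1 kb upstream on the other strand at 16 of the 30 starts (53.3%), against 22.1% of all protein-coding genes with a start. Such divergent partners were NPAT for ATM at 429 bp, ANKRD49 for MRE11 at 140 bp, HSCB for CHEK2 at 212 bp, ZAR1L for BRCA2 at 145 bp, DCTN5 for PALB2 at 156 bp, DESI1 for XRCC6 at 252 bp and ABHD13 for LIG4 at 43 bp. A region at such a start belongs to both genes. With shScramble, the 2001 bases centred on the start were covered over a median of 1761 bases at the 16 divergent starts and 1730 at the other 14, so the median cover differed by little between these sets.

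Most repair gene starts lay in listed regions in all 3 lists. A region lay within 1 kb of at least 1 gene end at 34 of the 36 genes with shScramble, against 64.8% of all protein-coding genes. With hairpin 1 it did so at all 36, against 73.0%, and with hairpin 2 at all 36, against 68.4%. With the best 83241 regions of each list the numbers were 33, 33 and 36, and with the best 20000 they were 26, 24 and 30, so the higher number with hairpin 1 did not hold at equal list length. The cut of the shScramble list at 83241 fell among regions with an equal authors' p of 0.951, so order among ties decided which stayed. PRKDC thereby lost its end region, at place 84579, while XRCC5 kept one at place 81956. Shares of all genes with a covered end are not given for these cut lists. The RefSeq start base itself lay inside a region at 26 of 30 genes with shScramble (47.6% of all genes), 29 with hairpin 1 (55.4%) and 29 with hairpin 2 (56.4%). Part of these ends also had a well-ranked region. The authors gave each region a p-value, and the best-ranked gene-end region had a p of at most 0.05 at 17 of 36 genes with shScramble (22.8% of all genes), 20 with hairpin 1 (27.7%) and 22 with hairpin 2 (29.5%). Genes without an end region count as not meeting this limit. The authors' q-value was not used for it. In the order shScramble, hairpin 1 and hairpin 2, 10781, 14673 and 10944 listed regions had a p of at most 0.05. Only 1314, 1803 and 1369 had a q of at most 0.05. The member shares were 47.2%, 55.6% and 61.1%, against 35.2%, 41.7% and 44.5% of the 12933 genes with an end covered in shScramble. The 17 genes that met this limit with shScramble all met it with both hairpins too, where 72.7% of all such genes did. They were ATM, ATR, CHEK1, CHEK2, CLSPN, H2AX, RNF168, BRCA1, BARD1, PALB2, XRCC2, XRCC3, XRCC6, FANCI, PARP1, PARP2 and RPA2. NHEJ1 met the limit with both hairpins only, PRKDC and TP53BP1 with hairpin 1 only, and RAD50, NBN, MDC1 and XRCC5 with hairpin 2 only. The other 12 did not meet it at a gene end in any list. Among them, MRE11 and RAD52 have a RefSeq start inside the annotated gene, and the region over that start met the limit in every list. For RAD52 its authors' p was 0.00536 with shScramble, 0.00145 with hairpin 1 and 0.00129 with hairpin 2, and MRE11 is described below.

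**Figure D1:**
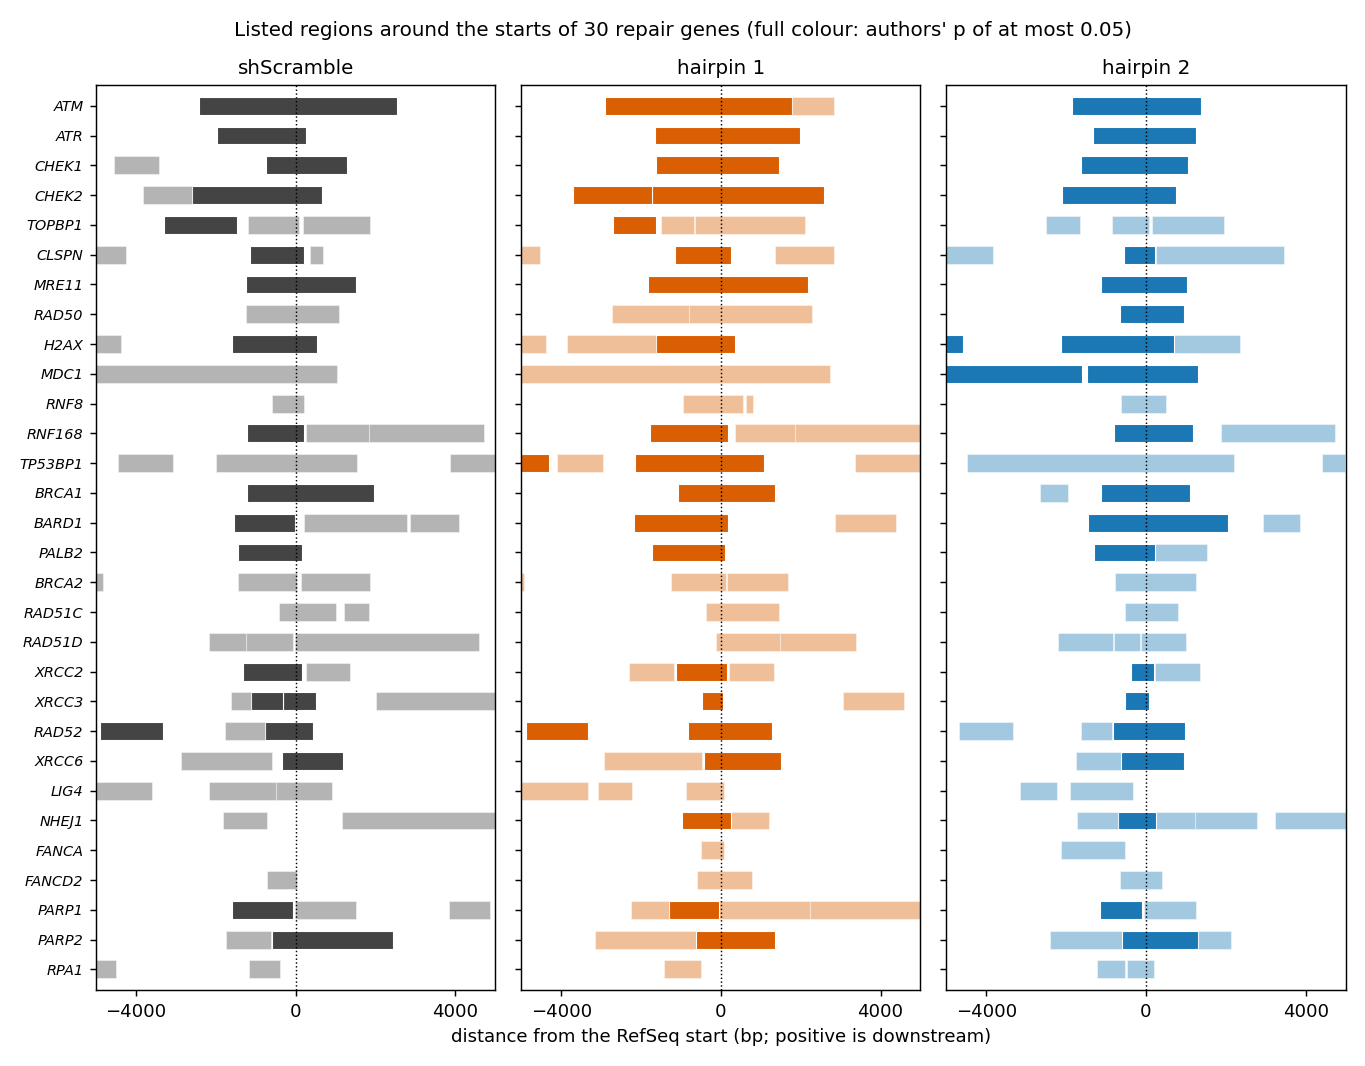
Listed regions within 5 kb of the start of each of the 30 repair genes with a RefSeq start, 1 panel per list, drawn as bars against the distance from the start in bp (positive is downstream, bars are clipped at the panel edge). Full colour marks an authors' p no higher than 0.05; a bar crosses the start line at 26 genes with shScramble, 29 with hairpin 1 and 28 with hairpin 2 (29 when the other RefSeq starts of LIG4 are counted).

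No member lost its end cover with both hairpins, as 1.43% of all genes did, and 2 of 36 gained it with both, against 6.65%. These were the only members without a covered end with shScramble, so no more could have gained one, whereas the share for all genes comes from a larger uncovered part. FANCA, a core subunit of the Fanconi anaemia ligase complex (chromosome 16, 89737549 to 89816647), was one. Its shScramble list had 4 regions in the locus, none at an end, and the nearest region was 5774 bp from the start. Hairpin 1 listed a region of 570 bp over the start (89816571 to 89817140, authors' p 0.166). Hairpin 2 listed one of 1610 bp (89817161 to 89818770, p 0.468), which began 514 bp upstream of the start. The hairpin regions do not overlap each other, so the gain was at the same gene end and not at the same bases. The other was MRE11, the nuclease of the break-sensing complex (chromosome 11, 94415570 to 94512412). The upper end of the annotated gene gained regions of poor rank with both hairpins, the best being 780 bp wide with hairpin 1 (p 0.805) and 1180 bp with hairpin 2 (p 0.835). The RefSeq start of MRE11 lies at 94493844, inside the annotated gene, and was covered in every list. The region there was 2760 bp wide with shScramble (p 0.00131), 4010 bp with hairpin 1 (p 1.71e-04) and 2150 bp with hairpin 2 (p 2.12e-04). The gene-end gain at MRE11 is thus not a gain at its start. Its hairpin 1 end regions stood at places 84984 and 115858, so that this gain is lost when each list is cut to its best 83241 regions.

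BARD1 and NHEJ1 had a start base that was inside a region with both hairpins and not with shScramble. BARD1, the partner of BRCA1 (chromosome 2, 214725646 to 214809683), had its start in a gap between a pair of shScramble regions, with one of 1510 bp (p 0.0133) beginning 28 bp upstream and one of 2570 bp (p 0.951) downstream. The corresponding region was 2360 bp wide with hairpin 1 (p 0.0151) and 3510 bp with hairpin 2 (p 0.0114), and reached across the start in both. Cover of the 2001-base start window was 1761 bases with shScramble, 1193 with hairpin 1 and 2001 with hairpin 2, so covering the start base did not go with more cover around it under hairpin 1. NHEJ1, the XLF factor of end joining (chromosome 2, 219069357 to 219160815), differed more. The nearest shScramble region lay 726 bp upstream and was 1090 bp wide (p 0.0545). A region over the start was 1230 bp wide with hairpin 1 (p 0.00377) and 940 bp with hairpin 2 (p 0.00338), and the covered part of the start window was 275 bases with shScramble, 1966 with hairpin 1 and 2001 with hairpin 2. No other of the 30 members gained as many start-window bases with either hairpin. RPA1, the large subunit of the single-strand binding protein, had its start inside a region with hairpin 2 only (670 bp, p 0.153). The nearest region to the RPA1 start was 405 bp away with shScramble and 485 bp with hairpin 1. LIG4 went the other way. Its RefSeq start at 108215536 lay inside a region with shScramble and hairpin 1, and 335 bp from the nearest region with hairpin 2. At least 1 of its 5 RefSeq starts was still covered with hairpin 2. The most covered LIG4 start window had 1916, 1349 and 1022 bases covered in the order shScramble, hairpin 1 and hairpin 2.

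The kinases and their activators were open at an end in every list. ATM, the apical kinase of the break response (chromosome 11, 108223067 to 108369102), had 2, 4 and 2 regions in its locus, the gene with 5 kb on both sides, with shScramble, hairpin 1 and hairpin 2. Its start region was 4970, 4690 and 3240 bp wide in the same order. Both regions of the shScramble list overlapped regions of the hairpin lists, and the start region with hairpin 1 was followed by a touching one of 1040 bp. At ATR the counts were 3, 3 and 2, and at the checkpoint kinase gene CHEK2 4, 5 and 2. CHEK1, the kinase downstream of ATR, had 2, 1 and 1. Its start region was wider with both hairpins, at 3080 and 2680 bp against 2030 bp, while the shScramble region upstream was not in either hairpin list. WEE1, which keeps CDK1 inactive, had 3, 4 and 3 regions, the ATR activator TOPBP1 4, 4 and 4, and the CHEK1 adaptor CLSPN 8, 7 and 8. PRKDC, the catalytic subunit of DNA-PK (chromosome 8, 47773111 to 47960136), had 7, 8 and 5. Its best end region was 1050, 2000 and 2430 bp wide, again in the order shScramble, hairpin 1 and hairpin 2, with authors' p-values of 0.951, 0.00181 and 0.290. Over these 8 genes, the hairpin 1 list had more regions than shScramble at 4 (51.2% of all genes) and fewer at 2 (17.3%), and the hairpin 2 list more at 0 (30.7%) and fewer at 4 (32.9%). For hairpin 1 the share with more was near that of all genes.

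Among the 8 genes that sense and mark breaks, hairpin 1 listed more regions at 5 (51.2% of all genes) and fewer at 1 (17.3%), and hairpin 2 more at 2 (30.7%) and fewer at 4 (32.9%). MRE11 had 1, 4 and 4 regions, RAD50 1, 2 and 1, and NBN 3, 3 and 1. At NBN (chromosome 8, 89933331 to 89984667) a single region of 2090 bp with hairpin 2 (p 0.0172) stood where shScramble and hairpin 1 each listed a pair. H2AX, the histone variant phosphorylated at breaks (chromosome 11, 119093874 to 119095465), had 2, 3 and 3 regions, and 23.7%, 41.6% and 42.3% of its short locus was covered. Its best end region was 2130, 1960 and 2820 bp wide, with authors' p-values of 1.13e-04, 1.38e-04 and 1.19e-04. RNF8, the first ubiquitin ligase of the pathway, had 4, 9 and 3 regions, and 5 of the 9 with hairpin 1 had a p above 0.75. RNF168 had 3, 3 and 2, and TP53BP1 6, 7 and 4.

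MDC1, the scaffold that reads the H2AX mark (chromosome 6, 30699807 to 30717281), had wide regions of poor rank in some lists and narrower ones of good rank in another. At its start, shScramble listed 1 region of 12630 bp and hairpin 1 one of 14010 bp, with authors' p-values of 0.951 and 0.949. Hairpin 2 listed 2770 bp over the start, at place 64 of its list (p 8.03e-08), and beside it 5130 bp (p 0.00165). TP53BP1, the end-joining factor that blocks resection, also differed between lists: its start region was 3230 bp with hairpin 1 (p 9.48e-04), but 3550 bp with shScramble (p 0.951) and 6710 bp with hairpin 2 (p 0.954). XRCC5, the larger Ku subunit, had an end region of 9920 bp with shScramble (p 0.951) against 3320 bp with hairpin 1 (p 0.0507) and 2930 bp with hairpin 2 (p 0.0308). Of regions at least 5 kb wide in the member loci, 4 of 5 with shScramble, 3 of 4 with hairpin 1 and 2 of 3 with hairpin 2 had a p above 0.9. Over the whole lists the shares were 68.2%, 73.1% and 75.7%. At MDC1 and TP53BP1 the start base lay inside a region in all 3 lists, whatever the rank or width of that region.

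**Figure D2:**
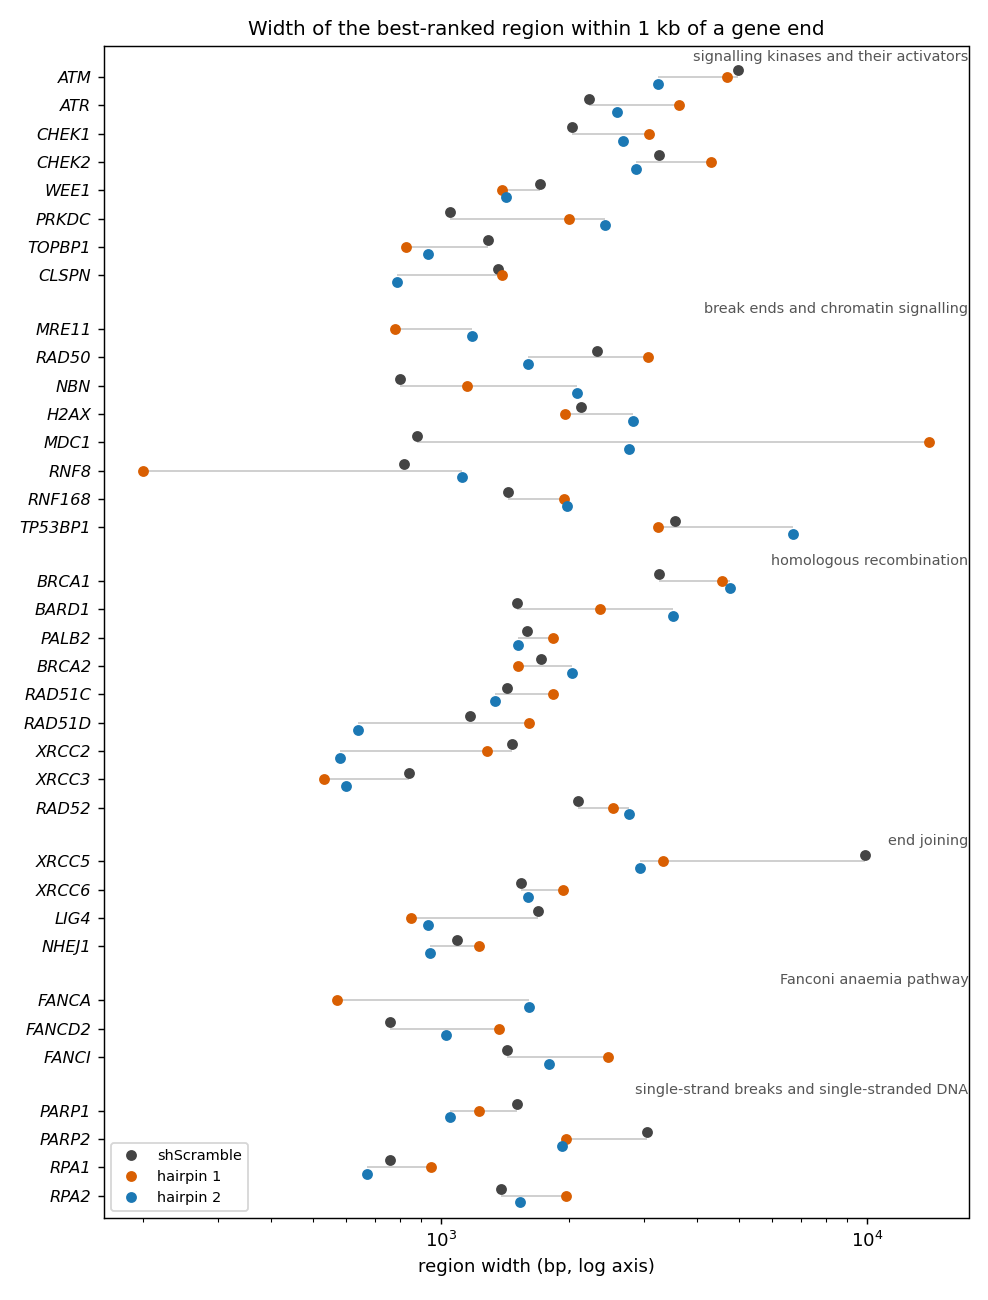
Width in bp (log axis) of the best-ranked region within 1 kb of either end of each repair gene, 1 point per list and gene, in order of role; the grey line joins the narrowest and widest. MRE11 and FANCA have no shScramble point; the MDC1 points run from 880 bp, for a region at the other gene end, to 14010 bp.

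Of 9 homologous recombination genes, hairpin 2 listed fewer regions at 4 (32.9% of all genes) and more at 2 (30.7%), and hairpin 1 fewer at 5 (17.3%) and more at 3 (51.2%). BRCA1 (chromosome 17, 43044295 to 43170327) had 2, 2 and 3 regions. It has a pair of RefSeq starts, and each lay inside a region in all 3 lists: 3250, 4570 and 4770 bp wide at the upper gene end, where NBR1 starts 82 bp away on the other strand, and 3170, 2430 and 2230 bp at the start at 43125364, inside the gene. One region was thus wider and the other narrower with both hairpins. BRCA2 had 4, 5 and 1 regions, and PALB2, the link between BRCA1 and BRCA2, 2, 1 and 2. The counts of further recombination genes differed among themselves. RAD51C had 2, 1 and 1, RAD51D 4, 3 and 5, XRCC2 2, 3 and 2, and XRCC3 5, 6 and 1. RAD52 had 6, 5 and 6 and BARD1 4, 3 and 3.

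XRCC3 (chromosome 14, 103697617 to 103715451) had the largest difference in the covered share of its locus with hairpin 2 among the members. Regions covered 38% of its locus with shScramble, 18.0% with hairpin 1 and 2.16% with hairpin 2. Its start stayed covered by well-ranked regions of 840 bp (p 8.38e-05), 530 bp (p 4.44e-04) and 600 bp (p 1.40e-04). With shScramble, touching regions of 800 and 490 bp extended the start region upstream, and the hairpin regions ended within the first of these. The covered part of the start window was 1511, 530 and 600 bases. Inside the gene, shScramble listed regions of 2960 and 5480 bp, both with a p of 0.677, where hairpin 2 listed none.

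Of the 4 genes grouped here under end joining, hairpin 1 listed more regions at 1 (51.2% of all genes) and fewer at 1 (17.3%). With hairpin 2, more were listed at 1 (30.7%) and fewer at 3 (32.9%). NHEJ1 was the gene with more in both. XRCC5 had 9, 6 and 7 regions, its partner XRCC6 5, 5 and 4, and the ligase gene LIG4 3, 3 and 2. NHEJ1 had 8, 10 and 11, but 8, 8 and 8 when regions at most 10 bp apart were joined. Its locus had 18290, 15320 and 17700 covered bases, so fewer with both hairpins. Among Fanconi anaemia genes, FANCA had 4, 5 and 3, FANCI 3, 3 and 1, and FANCD2, which is ubiquitinated together with FANCI, 1 in each list. The single FANCD2 region lay at the start and was 760, 1370 and 1030 bp wide. PARP1 had 3, 9 and 3 regions, and 33.3% of its locus was covered with hairpin 1 against 7.09% with shScramble and 9.25% with hairpin 2. Of the 9 regions, 8 had a p of 0.228 or more, and the best, just upstream of the start, was 1230 bp wide (p 0.00127). PARP2 had 2, 2 and 3 regions, RPA1 4, 3 and 4, and RPA2, the middle subunit of the same complex, 1 in each list, of 1380, 1970 and 1530 bp at its upper end.

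**Figure D3:**
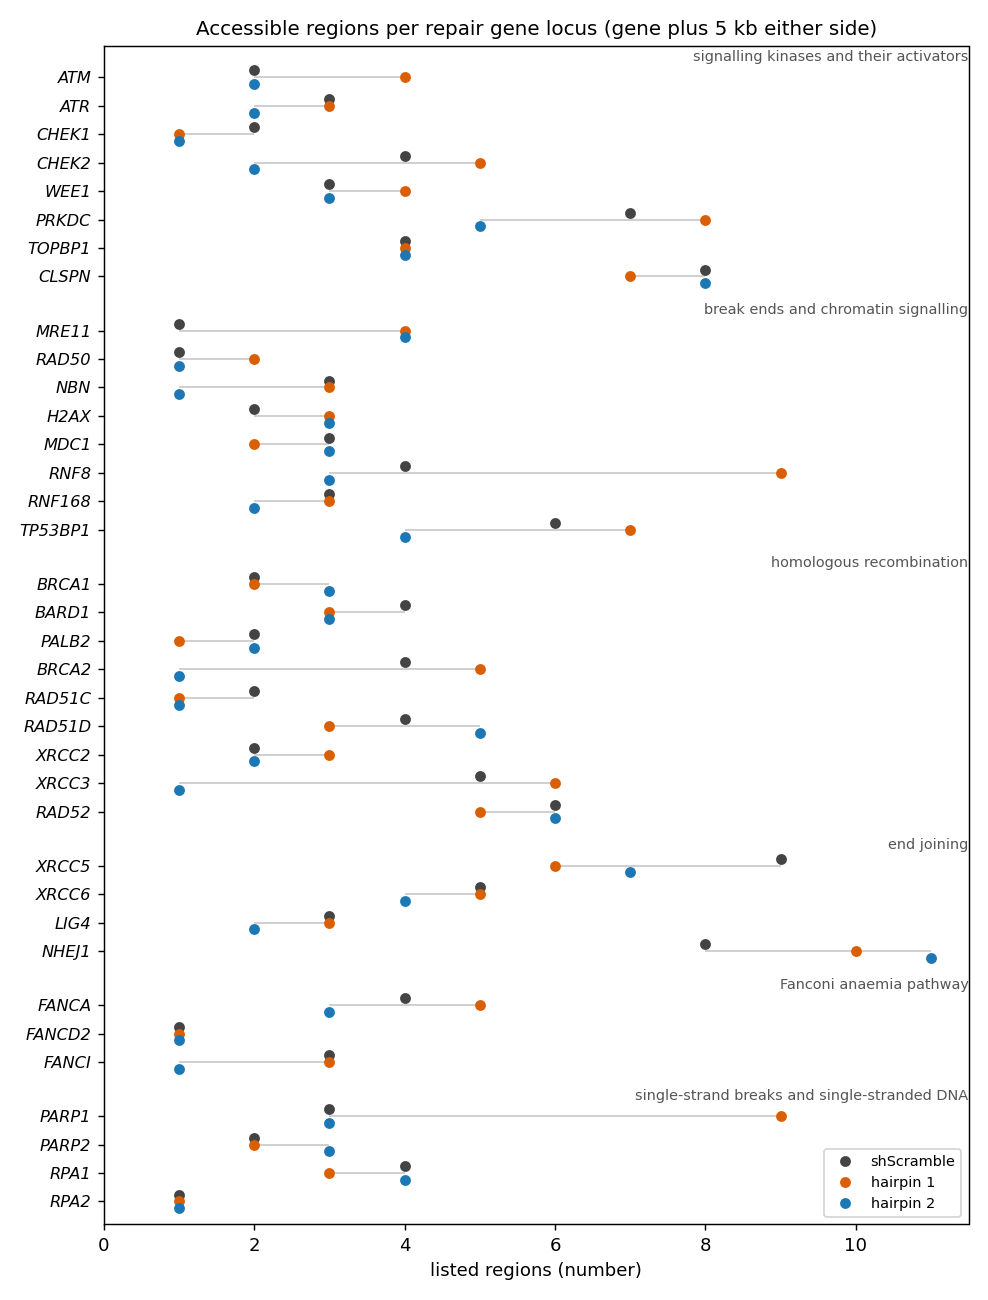
Number of listed regions in the locus (gene plus 5 kb on both sides) of each of the 36 repair genes, 1 point per list, in order of role. Most genes have 1 to 5 regions in each list. NHEJ1 reaches 11 with hairpin 2, RNF8 and PARP1 each reach 9 with hairpin 1, and XRCC5 reaches 9 with shScramble.

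The 36 loci together held 130 shScramble regions, 146 of hairpin 1 and 112 of hairpin 2, or 1.12 and 0.862 times as many as shScramble. Over all protein-coding loci the ratios were 1.36 and 0.994. With hairpin 1, 15 of 36 members had more regions than shScramble (51.2% of all genes) and 10 had fewer (17.3%). With hairpin 2, 6 had more (30.7%) and 17 had fewer (32.9%). The members with more regions with both hairpins were MRE11, H2AX and NHEJ1, 3 of 36 against 25.2% of all genes and 23.7% of the 12933 genes with an end covered in shScramble. Those with fewer with both were CHEK1, BARD1, RAD51C and XRCC5, 4 of 36 against 13.0% and 16.9%. After adding 1 to both numbers, the log2 ratio of region numbers had a median of 0 over the members with either hairpin, and 0.17 and 0 over all genes. When regions at most 10 bp apart were joined, a choice made after the data were seen, MRE11 alone had more with both and 8 members had fewer. With each list cut to its best 83241 regions, 10 had fewer with both. Shares of all genes with both are not given for these settings. In the cut lists, hairpin 1 had fewer regions at 18 members (6992 of 19970 genes) and more at 6 (5806). Hairpin 2 had fewer at 17 (6133) and more at 8 (6905). These counts over few regions per gene depend on how a list splits open stretches and on how long it is.

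Regions covered 8.98% of the member loci with shScramble, 9.95% with hairpin 1 and 6.65% with hairpin 2, beside 7.97%, 10.7% and 6.47% over all loci. More bases were covered with hairpin 1 at 19 members (62.0% of all genes) and fewer at 17 (25.9%). With hairpin 2, more were covered at 9 (30.5%) and fewer at 27 (54.9%). Both directions turned with the regions used. Relative to shScramble, the summed cover of member loci with hairpin 1 was 1.11 times with all regions, 0.774 times with the best 83241 of each list, 1.12 times with the best 20000 and 1.28 times when the authors' p was limited to 0.05. With hairpin 2 it was 0.740, 0.778, 1.11 and 1.13 times in the same order. No direction of total cover at these genes therefore held across the settings. Over all protein-coding loci the ratios were 1.34, 0.881, 1.06 and 1.33 with hairpin 1, and 0.812, 0.923, 0.979 and 1.06 with hairpin 2. They turned with the settings too, so the turning was not particular to the members.

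Cover at gene starts and in the rest of the locus differed from the control in opposite directions with hairpin 2, and in the same direction with hairpin 1. In the 30 genes with a start, 50.8 kb within 1 kb of a start was covered with shScramble, 54.0 kb with hairpin 1 and 55.6 kb with hairpin 2, while elsewhere in the loci 132, 160 and 94.3 kb was covered. With hairpin 2, cover was thus 1.09 times the control at starts and 0.714 times elsewhere, and over all protein-coding genes it was 1.09 and 0.748 times. The split with hairpin 2 was therefore close to that of all genes. With hairpin 1, cover was 1.06 times the control at starts and 1.21 times elsewhere, against 1.15 and 1.38 times over all genes. In the start window, more bases were covered with hairpin 2 at 16 of 30 members (37.9% of all genes) and fewer at 9 (27.1%). With hairpin 1 more were covered at 14 (41.7%) and fewer at 10 (25.0%). For hairpin 2 the members with more outnumbered those with fewer also when the p was limited to 0.05 (12 and 4), with the best 83241 regions (18 and 8) and with the best 20000 (17 and 8). All genes did the same under these settings (3338 and 1635, 6495 and 4016, 4598 and 2181), so this was not a result about the members. For hairpin 1 the numbers were 11 and 4, 10 and 14, and 11 and 11, so its direction turned with the length of the list. The stretch of touching regions over the start base reached a median of 1288 bp upstream and 782 bp downstream with shScramble, 1489 and 1283 bp with hairpin 1, and 1131 and 1044 bp with hairpin 2.

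The best-ranked gene-end region was wider than with shScramble at 21 of 34 members with hairpin 1 (53.8% of all genes) and narrower at 13 (42.7%). With hairpin 2 it was wider at 17 (43.6%) and narrower at 17 (53.0%). Over the members its width had medians of 1510, 1880 and 1605 bp for shScramble, hairpin 1 and hairpin 2, and 1480, 1540 and 1340 bp over all genes, in that order. By mean log2 ratio over both hairpins, the members with the widest regions relative to shScramble were MDC1, PRKDC, NBN, BARD1 and FANCD2, and those with the narrowest were XRCC5, LIG4, RNF8, XRCC2 and PARP2. The best region need not be the same one in each list, as at MDC1, LIG4 and RNF8. It can also be 1 of a pair. At NBN, shScramble listed 3520 bp beside the 800 bp region compared, and 5200, 4560 and 2090 bp of its locus were covered. At BARD1, shScramble listed 2570 bp across the start from the 1510 bp region compared. At RNF8 the ratio set 820 bp against a separate region of 200 bp with hairpin 1, while the region over the start was 820, 1510 and 1120 bp wide, wider with both hairpins. At PARP2 the stretch of touching regions over the start was 4190, 4500 and 4530 bp, also not narrower.

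Member loci held mostly shared regions. Overlapping regions of the 3 lists were joined, giving 138 merged regions in the 36 loci. Of these, 76 (55.1%) were in all 3 lists, against 36.3% over all protein-coding loci. An end was covered with shScramble at 34 of 36 members but at 64.8% of all genes. Shares over the loci of genes with a covered end alone are not given. Those listed with both hairpins but absent from shScramble numbered 3 (2.17% against 10.1%), 2 of them at MRE11 and 1 at LIG4. Regions in shScramble only numbered 18 (13.0% against 9.96%), of which 4 lay at XRCC5. A further 24 were in hairpin 1 only (17.4% against 26.6%), 5 of them at PARP1 and 4 at RNF8, and 7 in hairpin 2 only (5.07% against 5.68%). Of all listed regions of the member loci, 40.8% lay within 1 kb of the gene's own start (or end, where no start was known) with shScramble, 34.9% with hairpin 1 and 48.2% with hairpin 2.

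**Figure D4:**
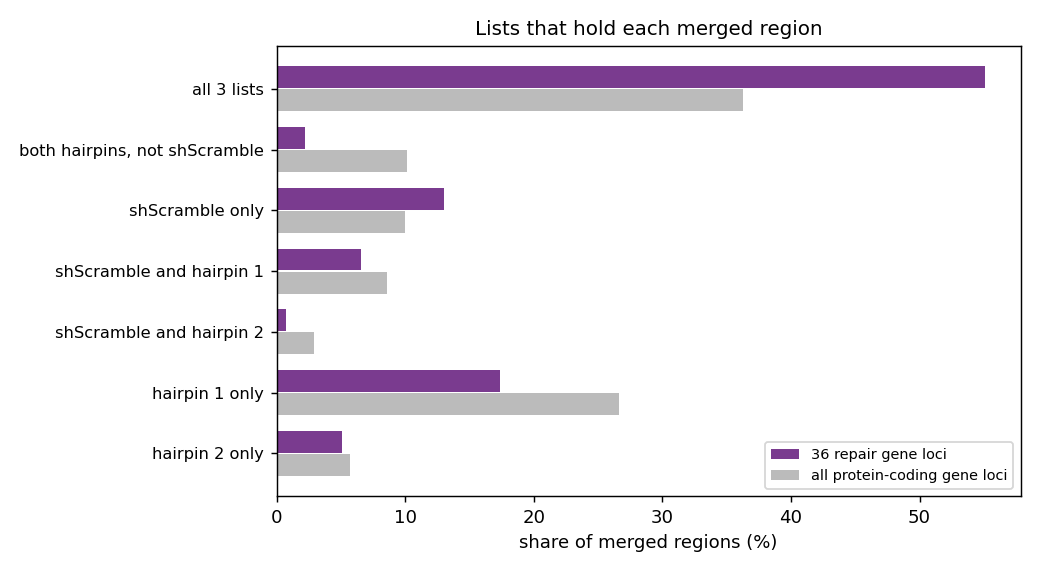
Share (%) of merged regions found in each combination of the 3 lists, for the 138 merged regions of the 36 repair gene loci and for 80865 of all protein-coding gene loci. Regions in all 3 lists make up 55.1% at repair genes and 36.3% over all loci, and regions in both hairpin lists only 2.17% and 10.1%. All loci include those of genes without a covered end.

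The same counts were made over 98 further repair genes. At least 1 end was covered at 91, 91 and 95 of them, against 64.8%, 73.0% and 68.4% of all genes. The best end region had an authors' p of at most 0.05 at 40, 52 and 62 (40.8%, 53.1% and 63.3%). The shares were 22.8%, 27.7% and 29.5% of all genes, and 35.2%, 41.7% and 44.5% of those with an end covered in shScramble. More regions with both hairpins were listed at 16 (16.3%, against 25.2% of all genes) and fewer at 20 (20.4%, against 13.0%). No gene lost its end cover with both hairpins (1.43% of all genes) and 4 gained it (4.08%). The share of gains over all genes was 6.65%, again from a larger uncovered part. The 4 were the resection nuclease gene EXO1 (2, 3 and 1 regions), SHLD1 (4, 7 and 3) and MAD2L2 (2, 5 and 3), which both encode parts of the shieldin complex, and the polymerase gene POLL (0, 3 and 1). RAD9A, of the checkpoint clamp, had at least 3 more regions with both hairpins (3, 8 and 7). The start base lay inside a region at 61, 64 and 74 of the 83 with a RefSeq start. These were 73.5%, 77.1% and 89.2%, against 47.6%, 55.4% and 56.4% of all genes.

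The targeted gene cannot be checked from region lists, which do not measure RNA: CHD4 had 6, 9 and 7 regions and a covered end in each list. Loci bound by the fusion of this tumour, NR0B1, NKX2-2, CCND1 and PRKCB, each had a covered end in every list, against 64.8%, 73.0% and 68.4% of all genes. Their region numbers differed between lists: 3, 3 and 4 at NR0B1, 8, 5 and 4 at NKX2-2, 4, 5 and 6 at CCND1, and 26, 33 and 25 at PRKCB.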

How the data were processed

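Accessible regions of SK-N-MC cells came from 1 deposited list per group. The submitters' processing notes name BWA, SAMtools 1.9, deepTools 3.2.1, Trimmomatic 0.36 and FastQC 0.11.7, with dm6 and GRCh38 as builds. Which program called peaks, whether reads were shifted for Tn5, and how the fly spike-in was used were not given in the sources used here. Scaling by a spike-in, or its absence, could alter the length of a list. Each deposited region has a score, a second authors' score without a stated unit, a p-value and a q-value, and the deposited lists are sorted by the p-value, which was used only to rank or filter within a list. Depth and its precision are unknown, since the lists hold no counts.

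Regions of chromosomes 1 to 22 and X were kept, with starts read as 0-based. Gene positions are those of RefSeq on GRCh38.p14. A gene end or start was covered when a region shared at least 1 bp with the window of 1 kb on either side; a locus is the gene plus 5 kb on both sides. Overlap code was tested on simulated regions. Python 3.11.15, numpy 2.4.6, pandas 2.3.3 and matplotlib 3.10.9 were used. With 1 list per group there was no test. The genes, the 98 further repair genes and the motifs were chosen with earlier results of these data known. Named in full, by rule, were members without a covered end in at least 1 list, the 5 with the largest mean change of region number and of end-region width in each direction, and further repair genes with a changed end or a change of at least 3 regions with both hairpins; 1 gene that this rule names is not reported here. Alternatives varied the regions used, window, locus and overlap.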

Additional observations from a re-analysis of the deposited data

How the results depend on the processing

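Under 10 alternative settings, 106 of 130 recomputed values lay within 1.5 times the reported one. Leaving out very wide or negative-valued regions, windows of 0.5 kb or 2 kb, the gene alone as locus and an overlap of at least 100 bp moved none of theirs past that limit. Not all of these could have done so. No region of the member loci was wider than 20 kb, and every value under the first of these settings equalled the reported one. With windows of 2 kb, covered ends and starts could only rise, from numbers already close to all members. With the authors' p limited to 0.05, a covered end was found at 17, 20 and 22 members in the order shScramble, hairpin 1 and hairpin 2, a covered start window at 17 and 19 with the first 2 lists, and the merged regions numbered 22 in all 3 lists and 3 in shScramble only. The covered share of the loci was then 2.20%, 2.81% and 2.49%. With each list cut to the length of the shortest, 10 members had fewer regions with both hairpins and the covered share with hairpin 1 was 6.61%. With the best 20000 regions, 31 merged regions were in all 3 lists and 7 in shScramble only, and the covered shares were 3.2%, 3.57% and 3.55%. With loci extended by 50 kb, 7 members had more and 9 fewer regions with both hairpins, and 213 merged regions were in all 3 lists, 16 in both hairpin lists only and 46 in shScramble only; a longer locus holds more regions by construction. With touching regions joined, a setting added after the data were seen, 1 member had more and 8 had fewer with both. The counts in this section are of the members alone, without the shares of all genes under the same settings. For the other settings the cause was not tested, apart from the smaller number of regions they keep. No paired analysis was possible because each group has a single list without replicates, and for the same reason no replicate was left out in turn.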
